A study of Mus musculus with 2 samples.

Results

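Interferon response genes were followed in the hearts of 2 newborn mice as a list of 39 named genes, made of 4 receptor chains, 6 transcription factors, 3 RNA sensors and 26 effectors. The members were named from the pathway, with earlier results of these data known, and all 39 were found by symbol among the 43346 Ensembl genes of the deposited tables. Total RNA had been sequenced from whole hearts of B6NCrl mice on postnatal day 0, replicate 1 being the single heart of pup 2 and replicate 2 that of pup 3, both of pregnancy 1. The labels give no treatment, and there was 1 group of 2 hearts with no other age, strain or condition. For each library 10 ng of RNA longer than 200 bases, extracted with the Ambion mirVana kit, was used together with spike-in RNAs. Both samples carry the same donor identifier although the labels name separate pups, so the spread between them may in part be technical.

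Type I interferons bind a receptor made of Ifnar1 and Ifnar2, and interferon gamma binds one made of Ifngr1 and Ifngr2. JAK kinases on these receptors phosphorylate STAT proteins, and a complex that holds Stat2 and Irf9 then binds the interferon-stimulated response element (ISRE) in promoters, whereas the response to interferon gamma acts through the gamma-activated site (GAS). The genes switched on in this way code for sensors of viral RNA and for effectors that block viral entry, translation or release. In the heart the pathway is known for restraining viral infection of the muscle.

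Promoter sequences are shown for 6 effectors that carry the ISRE core, picked in part by their ratio between the pups. The core was also found in Ifitm2, Irf2, Stat2 and Oas3, which are not shown, so the display cannot link motif and ratio. Isg15 (a ubiquitin-like modifier) and Ifit1 and Ifit3 (proteins that bind viral RNA) were higher in replicate 1, Ifit3 by less than 1.5-fold. Rsad2 (viperin, an enzyme that makes a chain-terminating nucleotide) was higher there as well. Oas1a (a synthetase of oligoadenylates) and Bst2 (tetherin, which holds budding virions at the cell surface) were level. Each sequence runs 5′ to 3′ and ends at the base before the transcription start given by RefSeq on GRCm38.p6, and capitals mark the ISRE core, which is GAAA, any 2 bases and GAAA again, or its reverse complement. The stretches lie at chr4:156200819-156200968 (minus strand) for Isg15, chr19:34640739-34640888 (plus) for Ifit1, chr19:34583279-34583528 (plus) for Ifit3, chr12:26456453-26456602 (minus) for Rsad2, chr5:120907526-120907675 (minus) for Oas1a and chr8:71537473-71537622 (minus) for Bst2.
Isg15: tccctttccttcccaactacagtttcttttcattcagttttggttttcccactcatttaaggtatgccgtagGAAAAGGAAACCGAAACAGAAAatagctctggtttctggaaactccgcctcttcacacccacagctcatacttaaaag
Ifit1: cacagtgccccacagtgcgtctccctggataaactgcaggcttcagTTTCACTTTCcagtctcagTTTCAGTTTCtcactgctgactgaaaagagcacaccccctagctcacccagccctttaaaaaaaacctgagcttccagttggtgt
Ifit3: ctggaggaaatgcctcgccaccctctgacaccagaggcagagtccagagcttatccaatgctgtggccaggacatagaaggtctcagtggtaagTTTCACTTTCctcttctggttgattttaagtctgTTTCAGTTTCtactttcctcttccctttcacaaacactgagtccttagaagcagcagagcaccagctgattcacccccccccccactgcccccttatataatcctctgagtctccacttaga
Rsad2: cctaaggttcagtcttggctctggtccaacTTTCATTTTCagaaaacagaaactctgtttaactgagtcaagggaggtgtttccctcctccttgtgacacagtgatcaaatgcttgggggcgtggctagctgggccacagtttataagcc
Oas1a: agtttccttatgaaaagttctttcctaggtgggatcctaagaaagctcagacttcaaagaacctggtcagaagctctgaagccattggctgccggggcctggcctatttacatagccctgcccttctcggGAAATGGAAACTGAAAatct
Bst2: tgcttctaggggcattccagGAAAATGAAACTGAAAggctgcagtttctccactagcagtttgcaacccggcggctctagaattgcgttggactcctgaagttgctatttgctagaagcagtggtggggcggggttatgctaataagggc
Isg15 held 3 overlapping matches between 78 and 57 bases before its start, and in Bst2 2 overlapping matches lay between 130 and 115 bases before it. Oas1a held 2 overlapping matches between 20 and 5 bases before its start, closer to it than in the other 5 promoters shown. Ifit1 and Ifit3 each held 2 separate matches on the opposite strand, at 104 to 95 and 85 to 76 bases before the start of Ifit1 and at 156 to 147 and 122 to 113 bases before that of Ifit3. Rsad2 had 1 match on the opposite strand, at 120 to 111 bases.

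The libraries held 46151722 expected counts (estimated reads per gene) in replicate 1 and 44707283 in replicate 2, and they differed from each other by more than sampling noise, with a chi-square of 13.7 per degree of freedom over 18163 genes. The heart label fitted the 7 cardiomyocyte markers, all detected, with a summed level of 57304 and 52852 TPM (a level corrected for transcript length and depth, scaled to a fixed total per library). Erythroid markers summed to 13812 TPM in replicate 1 and 8837 TPM in replicate 2. Lung epithelial markers were unevenly spread, with Sftpc at 25.46 and 0.34 TPM and Scgb3a2 at 2.96 and 563.01 TPM in replicates 1 and 2.

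Most of the list was present without any labelled stimulus. Detected at 1 TPM or more in both libraries were 31 of 39 members (79.5%), against 29.6% of all Ensembl genes and 54.5% of protein-coding genes. The members' mean levels had a median of 4.345 TPM, against 1.99 TPM for protein-coding genes and 12.0 TPM for the 11699 protein-coding genes that were detected. The 8 members not detected were all effectors. Summed over the list, the level was 996 TPM in replicate 1 and 984 TPM in replicate 2. In whole-heart RNA, fewer cells of a type and less RNA per cell cannot be told apart.

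**Figure D1:**
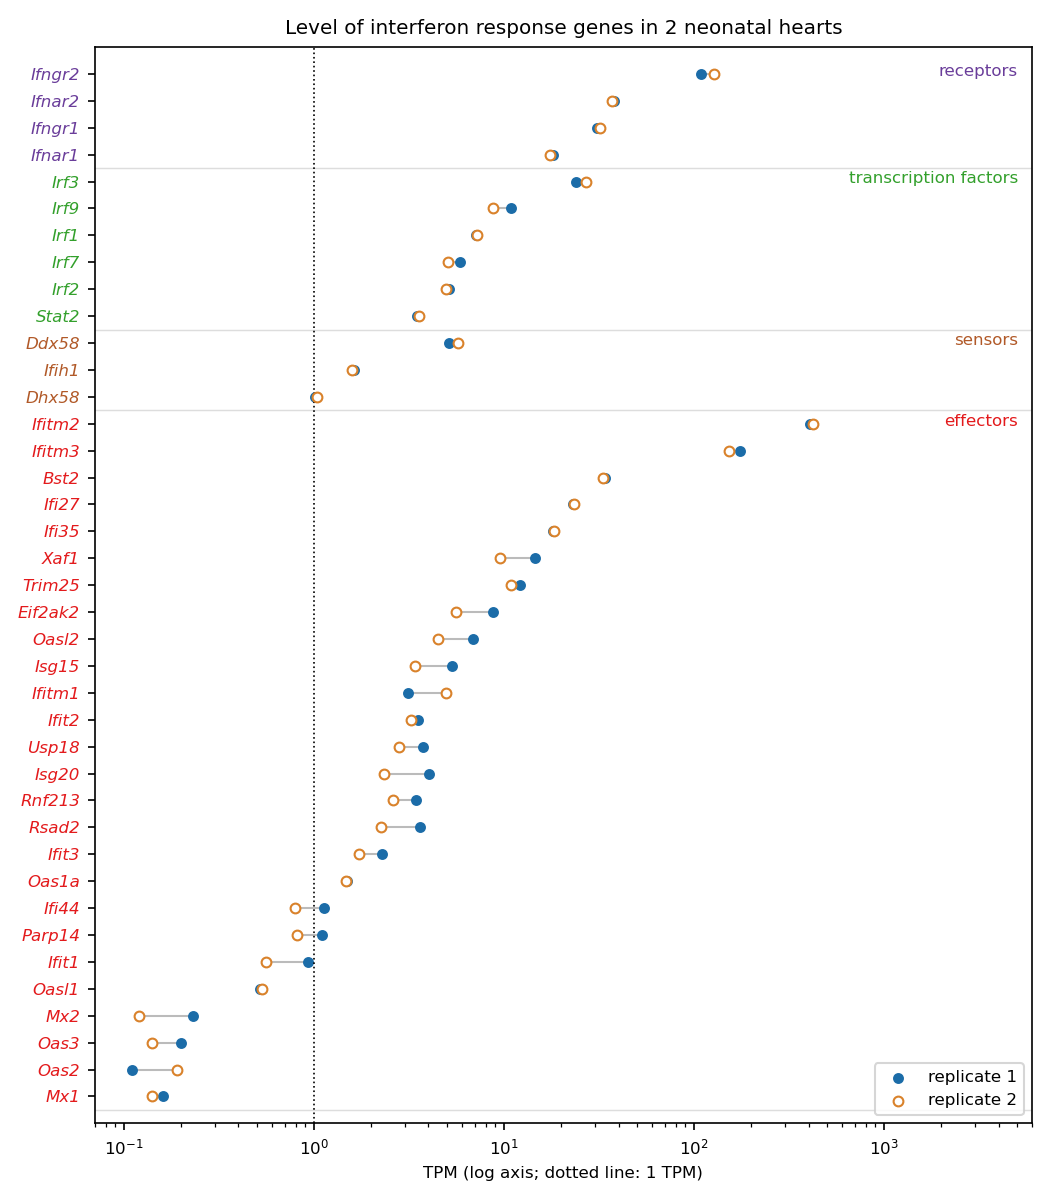
Level of each of the 39 members in TPM on a log axis, ordered by role and mean level, with a filled point for replicate 1 and an open point for replicate 2; no error bar is drawn, since each point is 1 library. The dotted line marks 1 TPM, and 3 members lie above 100 TPM in the mean, namely Ifitm2, Ifitm3 and Ifngr2.

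The 4 receptor chains were all detected and lay high in the list, with a summed level of 196 TPM in replicate 1 and 213 TPM in replicate 2. Ifngr2, the signalling chain of the interferon gamma receptor, had 108.99 TPM in replicate 1 and 127.12 TPM in replicate 2. It stood clearly above the other 3 chains in both hearts and was the lower of the pups' values in replicate 1. Ifnar2, which binds type I interferon with high affinity, had 37.8 and 36.79 TPM, and Ifngr1, the binding chain for interferon gamma, had 30.86 and 31.93 TPM. By gene-level TPM Ifnar1 was the lowest chain, at 18.05 and 17.39 TPM in replicates 1 and 2. By the leading form of each chain Ifnar1 was also lowest. Ifnar1-201 had 11 and 10.88 TPM, Ifnar2-203 30.07 and 31 TPM and Ifngr1-201 29.58 and 31.36 TPM, with Ifngr2-201 far above. A minor form of Ifnar2 lay lower still. Of the Ifnar2 level, 79.5% and 84.3% was in the coding Ifnar2-203 of 1099 bases. The longer Ifnar2-201, of 3047 bases, had 4.84 and 4.67 TPM, below Ifnar1-201 at 11 and 10.88 TPM. On the scale of scaled counts, the log2 ratio of replicate 1 over replicate 2 was 0.03 for Ifnar1, 0.00 for Ifnar2 and -0.09 for Ifngr1. For Ifngr2 it was -0.26, with a 95% counting interval of -0.30 to -0.22 that rests on 10514 and 12301 counts. These intervals cover counting error alone, since each pup gave 1 library.

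Transcription factors were likewise all detected, and their 6 levels summed to 56.3 TPM in replicate 1 and 56.5 TPM in replicate 2. Irf3, the constitutive factor that is phosphorylated after RNA or DNA sensing, led with 23.89 and 26.98 TPM. Irf9, the DNA-binding subunit of the ISRE complex, had 10.81 and 8.77 TPM, and Irf1, a factor induced by interferon gamma, had 7.11 and 7.21 TPM. The remaining 3 lay between 3.5 and 5.86 TPM in either heart. Behind these close sums the members differed in both directions. Irf7, which drives the interferon alpha genes and is itself interferon-inducible, had 355 counts in replicate 1 and 253 in replicate 2, a log2 ratio of 0.45 (counting interval 0.22 to 0.70). The ratio of its TPM was lower, at 0.21, and that of FPKM was 0.18. Irf3 had 1169 and 1395 counts, a ratio of -0.29 (-0.40 to -0.17). Irf9 stood at 0.26 (0.12 to 0.40). Irf1, Irf2 (known as an antagonist of Irf1) and Stat2 had ratios of -0.07, 0.04 and -0.04, whose counting intervals all included 0.

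RNA sensors were all detected, with 7.74 and 8.33 TPM in sum, and Ifih1 and Dhx58 were among the lowest detected members. Ddx58 (RIG-I, a sensor of RNA ends) had 5.11 TPM in replicate 1 and 5.71 TPM in replicate 2. Ifih1 (MDA5, a sensor of long double-stranded RNA) had 1.62 and 1.58 TPM, and Dhx58 (LGP2, a regulator of the other two) had 1.01 and 1.04 TPM. Every counting interval of the 3 ratios included 0. For Ddx58 the direction depended on the quantity, since the log2 ratio was 0.12 for scaled counts (546 and 490 counts) and -0.16 for TPM.

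Effectors spanned the whole range of the list, and 18 of 26 were detected. Their sum was 736 TPM in replicate 1 and 706 TPM in replicate 2. Ifitm2 and Ifitm3, membrane proteins that hinder fusion of enveloped viruses, together made up 58.6% of the TPM of all 39 members in replicate 1 and 58.2% in replicate 2. Ifitm2 had 408.85 TPM in replicate 1 and 420.38 TPM in replicate 2. Ifitm3 had 174.7 and 152.52 TPM in the same order. Ifitm2 was thus above Ifitm3 in both hearts, and the pups differed in opposite directions for the pair. Bst2 followed at 33.85 and 33.22 TPM. Without Ifitm2 and Ifitm3 the effectors summed to 152 TPM in replicate 1 and 133 TPM in replicate 2. Ifitm1, the third member of that family, was far below its relatives at 3.12 and 4.97 TPM.

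The classical antiviral families were low. The 3 Ifit genes summed to 6.75 and 5.52 TPM in replicates 1 and 2, the 5 OAS genes to 9.19 and 6.84 TPM and the 2 Mx genes, dynamin-like GTPases, to 0.39 and 0.26 TPM. Within the OAS family Oasl2 held most of the gene-level TPM, with 6.87 and 4.51 TPM, while Oas1a had 1.49 and 1.47 TPM. The largest part of Oasl2, 3.29 and 2.18 TPM, was Oasl2-205, a form annotated for nonsense-mediated decay. The intron-retaining Oasl2-204 had 1.51 and 1.68 TPM. The coding Oasl2-201 of 3123 bases had 0.79 and 0.66 TPM, below Oas1a in both hearts. A shorter coding form, Oasl2-207, had 1 TPM in replicate 1 and 0 in replicate 2. The modifier Isg15, its protease Usp18 and the ubiquitin ligase Trim25 summed to 21.1 TPM in replicate 1 and 17.0 TPM in replicate 2.

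Members that did not reach 1 TPM in both hearts were of 2 kinds. Ifi44, at 1.13 and 0.79 TPM, and Parp14, an ADP-ribosyltransferase at 1.1 and 0.81 TPM, straddled the threshold and were above it in replicate 1. Ifit1 had 0.93 and 0.56 TPM, and Oasl1, which in mice represses translation of Irf7, had 0.52 and 0.53 TPM. The remaining 4 were far lower and rested on few reads. Oas2 had 0.11 and 0.19 TPM from 16 and 25 counts. Oas3 had 0.2 and 0.14 TPM from 35 and 20 counts. These OAS genes differed in which heart was higher. Mx1, at 0.16 and 0.14 TPM, came from 10 and 9 counts. Mx2, which the GENCODE M21 annotation lists as a polymorphic pseudogene, had 0.23 and 0.12 TPM from 20 and 10 counts. No member was at 0 in either library.

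In the order of mean levels, the first 10 ranks were each separated from the next, meaning that both libraries of one gene lay above both of the other. They ran from Ifitm2 (415 ± 8.15 TPM, SD, n = 2), Ifitm3 (164 ± 15.7 TPM) and Ifngr2 (118 ± 12.8 TPM) through Ifnar2, Bst2, Ifngr1, Irf3, Ifi27 and Ifi35 to Ifnar1 (17.7 ± 0.467 TPM). From Irf1 at rank 14 to Rsad2 at rank 27 no gene was separated from the next one down. Over the whole list 17 of 38 neighbouring pairs were separated, and 27 members averaged less than 10 TPM.

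Within the list, several low effectors were higher in replicate 1 than in its littermate. That interferon response genes as a group were lower in replicate 2 was known when the list and thresholds were chosen. The shares of members past a fold or above 0, here and below, therefore describe that difference and are not independent support for it. Of the 34 members with a mean count of 50 or more, 4 were at least 1.5-fold higher in replicate 1 (11.8%), against 0.884% of the 13465 genes with that count. They were Isg20, Ifit1, Rsad2 and Isg15, all effectors. None was 1.5-fold lower, where 1.19% of all genes were, and none was 2-fold apart, where 0.498% were. The 5 members below a mean count of 50, which entered none of these counts, were Oasl1, Oas2, Oas3, Mx1 and Mx2.

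Isg20, an exonuclease that degrades single-stranded RNA, had 125 counts in replicate 1 and 69 in replicate 2, or 4.02 and 2.32 TPM. Its log2 ratio was 0.81 (counting interval 0.39 to 1.27), a fold of 1.75. Rsad2 had 509 and 312 counts, or 3.63 and 2.25 TPM, and a ratio of 0.67 (0.47 to 0.88). Of these 4 genes it rested on the most reads and had the narrowest interval. Isg15 had 133 and 84 counts, or 5.3 and 3.39 TPM, and a ratio of 0.62 (0.23 to 1.04). Ifit1 had 90.7 and 53.8 counts, a ratio of 0.70 (0.22 to 1.24). With spike-in scaling Isg15 was below 1.5-fold, at 0.56, and 3 members were past it. The lower ends of all 4 intervals lay below 1.5-fold, so counting error alone leaves their place beyond that fold uncertain. With 1 library a pup, these ratios compare the libraries and have no replicate check.

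**Figure D2:**
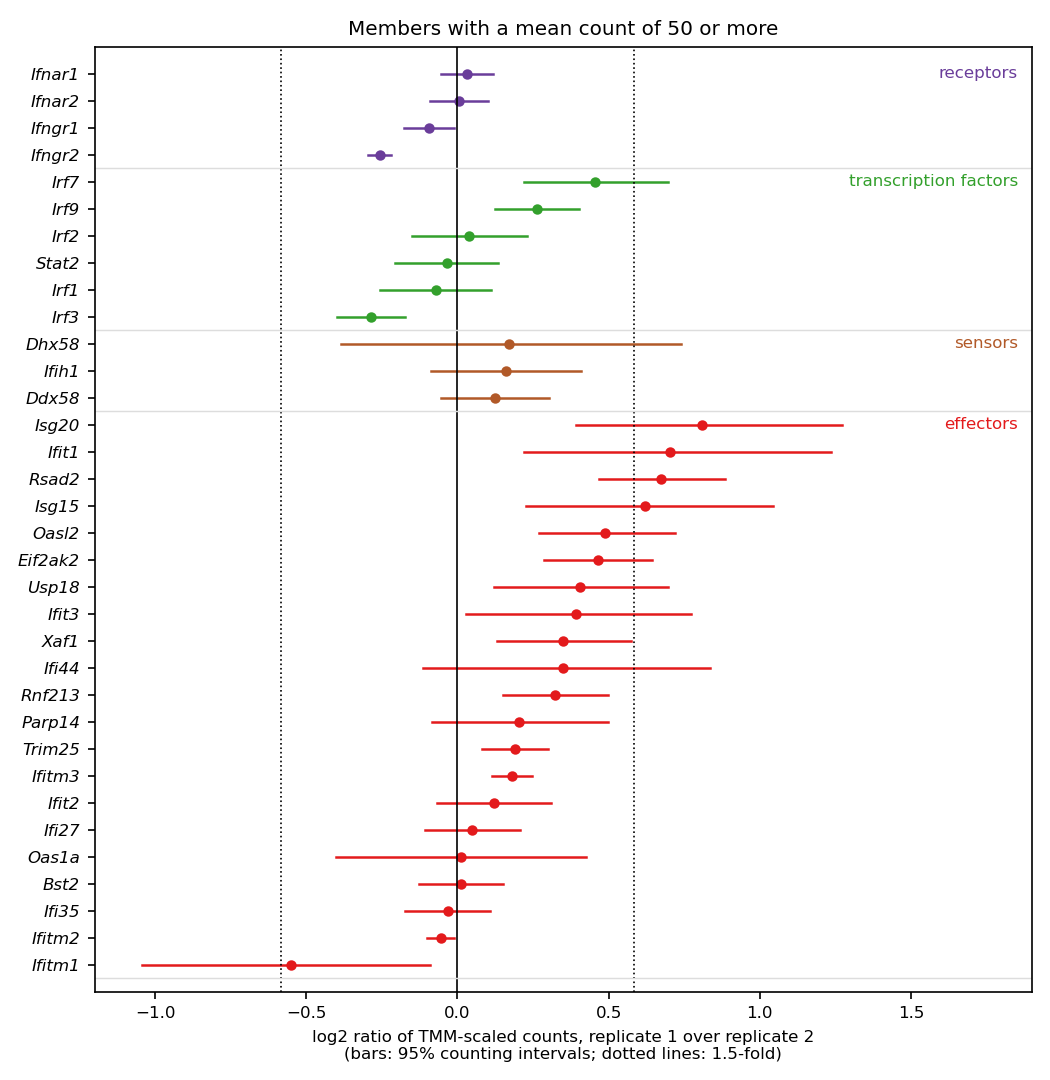
Log2 ratio of TMM-scaled counts, replicate 1 over replicate 2, for the 34 members with a mean count of 50 or more, grouped by role; horizontal bars are 95% counting intervals and dotted lines mark 1.5-fold either way. The 21 effectors have a median of 0.32 and reach 0.81 (Isg20), whereas the 4 receptor chains lie between -0.26 and 0.03.

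A lower fold of 1.2, chosen after the data were seen, showed the same side. Past it were 12 of 34 members higher in replicate 1 (35.3%), against 7.29% of all genes, and 2 members lower, Irf3 and Ifitm1, against 7.92%. Of the 12, 11 were effectors and the other was Irf7, which was below 1.2-fold by TPM and FPKM. Oasl2 had a ratio of 0.49 (0.27 to 0.72) and Eif2ak2, the RNA-activated kinase PKR that halts translation, 0.46 (0.29 to 0.64). Usp18, which also dampens signalling at the type I receptor, was at 0.40. Ifit3 had 0.39, and Xaf1 (a partner of the caspase inhibitor XIAP) and Ifi44 each had 0.35. Rnf213, a giant ubiquitin ligase, had 0.32. Ifitm1 went the other way with 65 and 94 counts and a ratio of -0.55 (-1.04 to -0.09).

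Across the members of mean count 50 or more, 26 of 34 ratios were above 0, where 50.4% of all genes were. The median ratio was 0.16 (0.09 by TPM and 0.06 by FPKM), against 0.00 for all genes. By role the medians were -0.04 for receptors, 0.00 for transcription factors, 0.16 for sensors (-0.04 by TPM and -0.06 by FPKM) and 0.32 for effectors, of which 18 of 21 were above 0. Of the effectors averaging over 10 TPM, Bst2, Ifi27, Ifi35 and Ifitm2 had ratios between -0.06 and 0.05. The others were higher in replicate 1, with Ifitm3 at 0.18 (counting interval 0.11 to 0.25), Trim25 at 0.19 (0.08 to 0.30) and Xaf1 at 0.35 (0.13 to 0.57). Low counts scatter more, so the members of mean count 50 to 1000 were also set beside genes of that range. There 4 of 26 members were 1.5-fold higher in replicate 1, against 1.46% of genes, and 12 of 26 were 1.2-fold higher, against 10.8%. At 1.5-fold lower and at 2-fold apart there were 0 of 26 members, against 2.11% and 0.886% of these genes. Of the 26 members, 22 had a ratio above 0, against 48.6%, and 1 was 1.2-fold lower, against 13.5%.

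**Figure D3:**
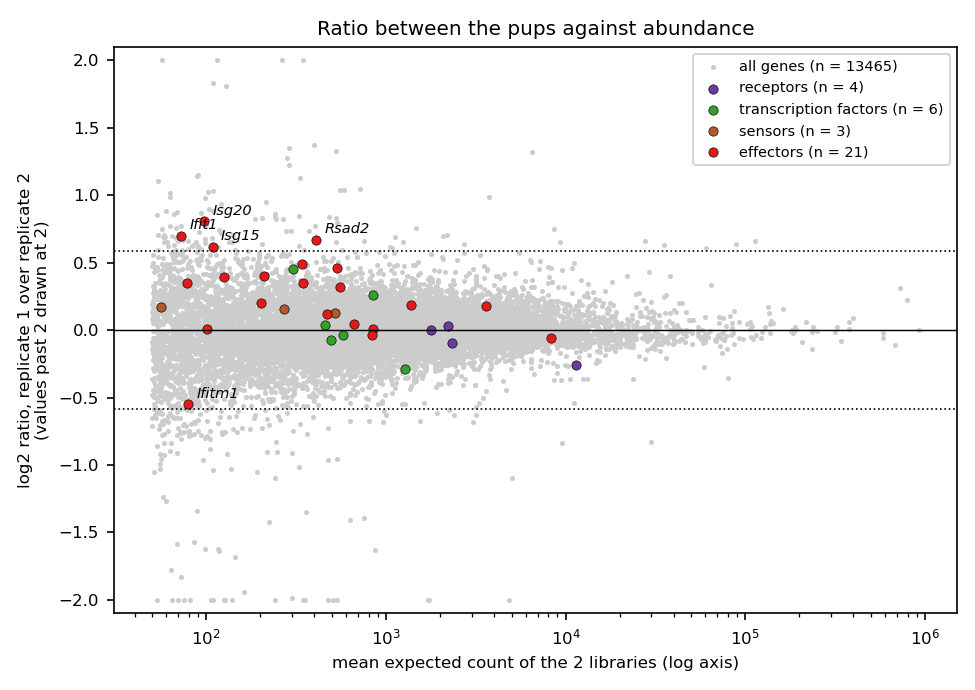
Log2 ratio of replicate 1 over replicate 2 against the mean expected count (log axis) for 13465 genes in grey and the 34 members in colour by role, with dotted lines at 1.5-fold and ratios beyond 2 drawn at 2. The 4 named effectors beyond the upper line have few reads (from 90.7 and 53.8 counts for Ifit1 to 509 and 312 for Rsad2), where the grey cloud is wide, and Ifitm1 is the lowest member at -0.55.

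Markers of some other cell types differed between the hearts as well. Closer were the endothelial markers, with a median log2 ratio of 0.08 (range -0.04 to 0.16). The fibroblast markers had -0.06 (-0.24 to 0.16) and the mural markers 0.11 (0.10 to 0.19). All 7 erythroid markers with a mean count of 50 or more were at least 1.5-fold higher in replicate 1, with a median log2 ratio of 0.66. Of the 4 lung epithelial markers with that count, Sftpc and Ager were 1.5-fold higher in replicate 1, and Scgb1a1 and Scgb3a2 were 1.5-fold lower; the list of 6 summed to 32.4 and 639 TPM with 1 detected. Macrophage markers summed to 124 TPM in replicate 1 and 137 TPM in replicate 2, with 9 of 10 detected. Their median ratio was -0.14, with 2 ratios above 0 and 8 below. Of the 4 plasmacytoid dendritic markers, which include the member Bst2, 2 were detected, namely Bst2 and Tcf4 (56.67 and 51.94 TPM), while Siglech had 1 and 5 counts and Ccr9 4 and 10 counts. The 8 lymphocyte and NK markers summed to 0.74 and 1.01 TPM and none was detected. Neutrophil markers summed to 33.5 and 34.0 TPM. The part of erythroid, lung, macrophage or other marked cells in the effector result was not tested.

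Interferon transcripts themselves were at or near 0. Of 12 ligand genes none was detected, and 10 had no count in either library, among them Ifnb1, Ifng and 4 interferon alpha genes. A count of 0 allows a level of up to 3 counts, which for these 10 genes lay between 0.0710 and 0.172 TPM. Ifnk had 1 count in replicate 1 and 0 in replicate 2. Ifnz had 8.44 and 15.7 counts, but many of its reads were shared with other genes, the posterior SD of its count being 43.8% of the mean.

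Beyond the members, 111 further genes of the pathway were listed, 109 were matched and 69 were detected. Of the 76 with a mean count of 50 or more, none was 1.5-fold apart between the pups in either direction, and 14 were 1.2-fold higher and 6 were 1.2-fold lower in replicate 1, with a median ratio of 0.09. Over all genes 7.29% were 1.2-fold higher and 7.92% were 1.2-fold lower. Among receptor and JAK-STAT genes, Il10rb, a shared chain of the lambda interferon receptor, had 71.3 ± 5.30 TPM and Stat3 45.2 ± 6.73 TPM (SD, n = 2 here and below). The kinase Jak1 had 46.62 and 40.74 TPM and Tyk2 4.22 and 4.65 TPM. In sensing and adaptor genes, Mavs (the mitochondrial adaptor of RIG-I and MDA5) had 20.86 and 21.05 TPM and Myd88, an adaptor of Toll-like receptors, 12.9 and 11.97 TPM. Among other IRF genes, the myeloid factor Irf8 had 7.97 ± 0.389 TPM and the corepressor Irf2bp2 7.33 ± 0.141 TPM. Subunits of RNase H2, which removes RNA from DNA hybrids, led the negative regulators, with Rnaseh2a at 41.5 ± 2.87 TPM and Rnaseh2c at 36.9 ± 0.453 TPM.

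Among further interferon-stimulated effectors, 9 of 30 were 1.2-fold higher in replicate 1 and 2 were lower, and 4 of 13 interferon-inducible GTPase and p200 genes were higher and 1 was lower, against the same 7.29% and 7.92% of all genes. Lgals9, a galectin, had 53.0 ± 7.67 TPM and Ifi27l2a, a small membrane protein, 45.2 ± 9.43 TPM. The GTPases Irgm1 and Iigp1 had 11.0 ± 0.643 and 8.36 ± 1.32 TPM. The most positive log2 ratios were those of Gbp4 (0.44), Rtp4 (0.44), Slfn2 (0.42), Ifi27l2a (0.41) and Ifi203 (0.35). Rtp4 had 9.35 and 6.83 TPM in replicates 1 and 2. Among the most negative were Ifnlr1 (-0.40), Ifit1bl2 (-0.34), Socs1 (-0.32) and Ifi47 (-0.28). Socs1, an inhibitor of JAK kinases, had 4.61 and 5.72 TPM.

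In the promoters, the ISRE core was found before a larger share of the members than of all genes. This core (GAAA, any 2 bases, GAAA), on either strand and with overlaps counted once per gene, was found within 250 bases before the start in 10 of the 32 members matched to the RefSeq table (31.2%), against 3.46% of 27025 genes. It was present in 8 of 20 effectors, in the transcription factors Irf2 and Stat2 of 6, in 0 of 4 receptors and in 0 of 2 sensors, roles too small in number to be read against the share over all genes. The other pathway genes had it in 29 of 89 cases (32.6%). The longer run of 3 GAAA blocks, each pair parted by any 2 bases, was found in Isg15, Oas1a and Bst2 and in 0.104% of all genes. The GAS motif TTCNNNGAA, which reads the same on both strands, was found in 8 of 32 members (25%), against 8.13% of all genes; in Bst2 it overlapped the ISRE core. In all there were 16 matches to the ISRE core, 10 in the forward and 6 in the reverse direction, 13 of them within 150 bases of the start. Such a match describes letters and not a bound site.

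**Figure D4:**
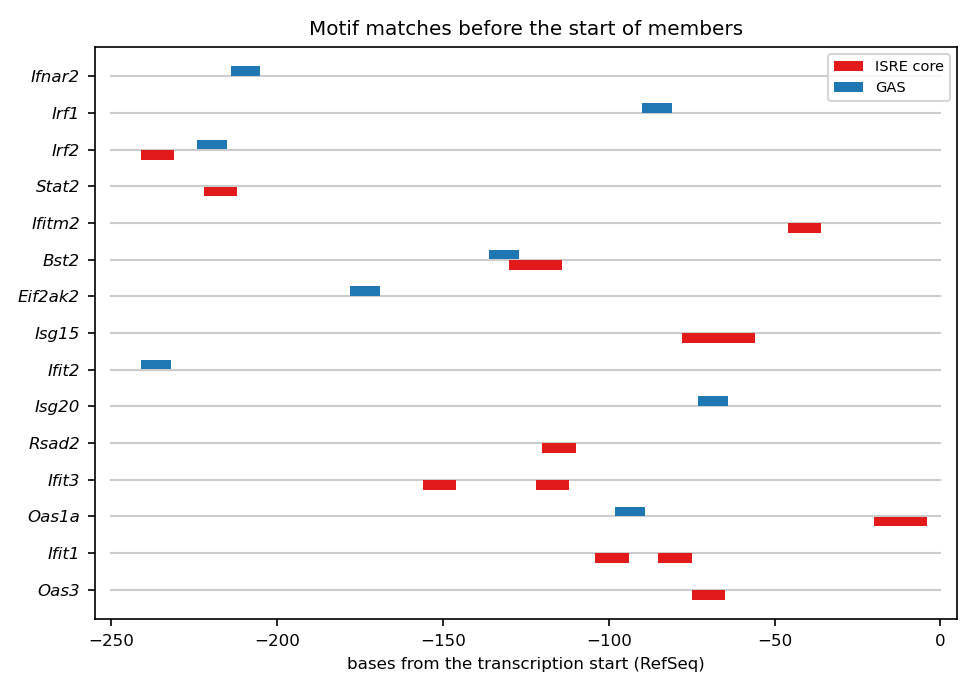
Positions of ISRE core (red) and GAS (blue) matches in the 250 bases before the RefSeq start of the members that hold at least 1 match, 1 line per gene, with the distance from the start in bases on the horizontal axis. Isg15, Oas1a and Bst2 show the longer red blocks of overlapping matches, and no red block lies on the line of the receptor Ifnar2.

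The ratio between the pups was set beside the motif as a description. The 9 counted members with the ISRE core had a median log2 ratio of 0.04, and the 21 without it had 0.16. At 1.2-fold higher in replicate 1 were 4 of the 9 and 7 of the 21, and at 1.5-fold higher 3 of the 9 (Isg15, Ifit1 and Rsad2) and 1 of the 21 (Isg20). Among the promoters printed above, Isg15 and Rsad2 belonged to genes at 0.62 and 0.67, whereas Oas1a and Bst2, with 3 repeats each, belonged to genes at 0.01. Isg20, with the largest ratio of the counted members, held a GAS match but no ISRE core in this window.

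On the chromosomes, 19 of the 39 members lay in 7 clusters, each neighbour within 1 Mb of the next. Ifnar2, Ifnar1 and Ifngr2 lay together on chromosome 16 at 91372783 to 91565623 (mm10), and Ifit2, Ifit3 and Ifit1 on chromosome 19 at 34550694 to 34650009. Some neighbours were alike, such as Mx1 and Mx2 in mean level (0.15 and 0.175 TPM) and Ifnar2 and Ifnar1 in ratio (0.00 and 0.03). Others differed. In the cluster of 312 kb on chromosome 7, at 140954837 to 141266481, Ifitm2 and Ifitm3 were abundant and Ifitm1 and Irf7 were low, and the ratios were -0.06, 0.18, -0.55 and 0.45. Within 99.3 kb on chromosome 19, Ifit1 and Ifit3 had 0.70 and 0.39, and Ifit2 had 0.12. On chromosome 5, the neighbours Oasl2 and Oasl1 differed in level, at 6.87 and 0.52 TPM in replicate 1 and 4.51 and 0.53 TPM in replicate 2.

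Transcript shares were examined for 23 members with more than 1 transcript and at least 1 TPM in both libraries. In 21 of them the same transcript held the largest share of the gene's TPM in both hearts, and in 10 the credibility intervals that the authors give for the leading form and the runner-up were apart in both. Ifih1 was an exception, with the longer coding form Ifih1-201 at 69.8% in replicate 1 and 43.1% in replicate 2 and Ifih1-202 at 15.8% and 49.8%. In Xaf1 a form annotated for nonsense-mediated decay, Xaf1-201, had 46.7% and 34.1%, and the coding Xaf1-202 had 39.8% and 43.75%. The credibility intervals of the leading forms overlapped in replicate 2 for Ifih1 and in both hearts for Xaf1, so the change of main form was not resolved. In Irf7 the coding Irf7-201 had the largest share in both hearts, at 29.4% and 31.7%. An intron-retaining form of 1922 bases had 28.6% in replicate 1 and 8.52% in replicate 2. The credibility intervals of these forms overlapped in both hearts. Those of the intron-retaining form also overlapped between the hearts, at 0.75 to 2.50 and 0.12 to 0.93 TPM. Neither the main form of Irf7 nor the change was therefore resolved.

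Shares of TPM and of reads were not alike for genes with short forms. The intron-retaining Eif2ak2-204, 704 bases long, held 51.7% and 55.9% of the gene's TPM but 104 and 71.1 counts, whereas the coding Eif2ak2-201, 4313 bases long, held 497 and 367 counts. Rnf213-203, of 2422 bases, had 83.2% and 81.8% of the TPM from 254 and 187 counts, against 366 and 298 counts for the full Rnf213-201 of 16716 bases. A short form of Eif2ak2, Eif2ak2-203 of 574 bases, had 1.05 TPM in replicate 1 and 0.08 TPM in replicate 2 from 19.1 and 1.36 counts. The log2 ratio of TPM differed from that of counts for some members, at 0.64 against 0.46 for Eif2ak2 and 0.60 against 0.35 for Xaf1. With the ratio of TPM, 7 members were 1.5-fold higher in replicate 1, where 1.21% of all genes were, and 1 was lower, where 1.29% were. The added ones were Oasl2, Eif2ak2 and Xaf1, and the lower one was Ifitm1.

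**Figure D5:**
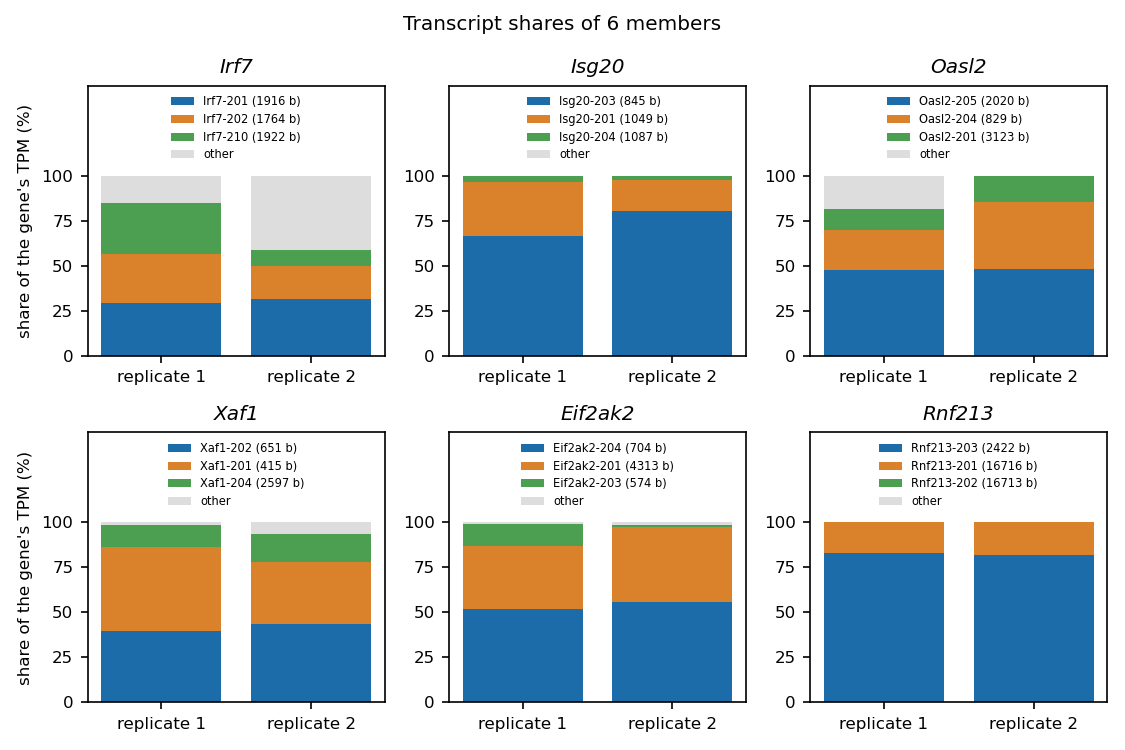
Share of each gene's TPM held by its leading transcripts (length in bases in the legends) in replicate 1 and replicate 2 for Irf7, Isg20, Oasl2, Xaf1, Eif2ak2 and Rnf213, with the remaining transcripts in grey; each bar is 1 library and sums to 100%. Isg20-203 holds 66.7% and 80.5% in replicates 1 and 2, and the intron-retaining form of Irf7 (1922 bases) holds 28.6% and 8.52%. The credibility intervals of that Irf7 form overlap between the hearts.

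Reads shared with paralogs were few by the authors' estimate, since the posterior SD of the count was at most 3.83% of its mean in any member. In the GENCODE M21 annotation 11 members overlapped a gene on the opposite strand, among them Irf3 (Bcl2l12), Irf7 (Phrf1), Usp18 (Gm44148, over 15715 bases) and Rnf213 (A930037H05Rik, over 38631 bases). No source used here says whether counting was strand-specific, and reads from such overlapping pairs may therefore be mixed. With overlaps on the same strand, where strand cannot part the reads, 15 members overlapped another gene. Those on the same strand were Ifitm2 (Gm45717, over 1101 bases), Ifnar2 (Gm21970, over 13869 bases), Irf9 (Rnf31) and Parp14 (Gm49730). Isg20, Isg15, Ifit1 and Rsad2 overlapped no other annotated gene.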

How the data were processed

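For each library there was 1 table of genes and 1 of transcripts, deposited by the authors without pooling. They were quantified on mm10 with GENCODE M4, per the deposited read-me. Column names are those of RSEM output; no source used here states the aligner, the tool versions or the strand setting. The expected counts deposited by the authors estimate the reads of each gene, and reads that match several genes were shared out. Per the file headers, TPM and FPKM correct these for effective length and for depth. The deposited tables also hold posterior means, and signal values that are the posterior SD of each count and the limits of a TPM credibility interval of unstated width. In the deposited transcript table a percent column gives the share a transcript has of its gene.

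Symbols, biotypes and coordinates came from GENCODE M21 by gene identifier and promoter sequences from RefSeq (GRCm38.p6), which matched 32 members. Expected counts were rounded and scaled by TMM (edgeR 4.0.16, R 4.3.3). Ratios are log2 of replicate 1 over replicate 2 with a prior count of 2, computed over all genes whose mean count was at least 50 and tested on simulated data. Their 95% intervals are exact Clopper-Pearson intervals of the split of counts and cover counting error only. With 1 library per pup no p-value was computed. Depth was 46151722 and 44707283 expected counts, and rows named by a number (26248) held 7.8e-05% and 8.7e-05% of them. A gene counted as sharing reads if its posterior SD was over 10% of the mean.

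The members, the lists of pathway genes and markers, and the thresholds were chosen with earlier results of these data known, among them that interferon response genes as a group were lower in replicate 2. Values in both libraries are given for the 3 highest and all undetected members of each role and for members past 1.5-fold, then for the 2 highest genes of each pathway group and the 5 most positive and 5 most negative ratios, apart from genes not reported here by name; further members were named after their values were seen. Such genes still enter the counts. Alternatives were DESeq2 1.42.0 size factors, spike-in and total-count scaling, TPM (pseudocount 0.1), FPKM and posterior means, other prior counts, filters and detection limits, and other motif windows. The 1.2-fold limit, the range of 50 to 1000 counts and the sum without Ifitm2 and Ifitm3 were chosen after seeing the data. Further software was Python 3.11.15 with scipy 1.17.1, numpy 2.4.6, pandas 2.3.3 and matplotlib 3.10.9.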

Additional observations from a re-analysis of the deposited data

How the results depend on the processing

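No paired analysis was possible because there was 1 group. The ratio between the pups and the comparison of main transcripts need both libraries, so neither could be had without a replicate. Of the values that answer a comparison, 75 stayed within their limits under the alternatives and 20 moved. No member passed the limit for shared reads, so leaving out such genes could move none of them. The limit for a role sum was the SD of both libraries, so leaving out either replicate could not move it by construction. Those values are among the 75 and are no sign of stability. The count of members 1.5-fold higher in replicate 1 (4) was 7 with TPM, 3 with spike-in scaling (Isg15 at 0.56), 5 with FPKM and with a mean count of 20, and 6 with no filter. The count 1.5-fold lower (0) was 1 with spike-in scaling, TPM, FPKM, a mean count of 20 and no filter, and the count 1.2-fold lower (2) was 1 with TPM and with FPKM. The median ratio lay between 0.06 (FPKM) and 0.18. The ratio of Ddx58 (0.12) reversed to -0.16 with TPM and -0.19 with FPKM. Among single members, 105 values stayed and 3 moved, namely Irf7 (0.45) to 0.21 with TPM and 0.18 with FPKM, and Ifngr2 (-0.26) to -0.32 with spike-in scaling. The 105 include the settings with another count filter or without shared reads, which leave a single ratio unchanged by construction. With spike-in scaling, which rests on 262 and 246 counts, 0 of 4 receptors, 2 of 6 transcription factors and 15 of 21 effectors were above 0, and the median of all genes shifted to -0.06. The sensors' median was -0.04 with TPM and -0.06 with FPKM. At 5 TPM, 17 members were detected (31 at 1 TPM) and 13 kept their main transcript (21). The median level (4.345 TPM) lay between 4.51 and 5.11 TPM when either replicate was left out, 5.11 without replicate 2. Without mitochondrial genes and spike-ins in the denominator, the mean sums were 235 TPM for receptors (204 TPM otherwise), 64.9 for transcription factors (56.4), 9.25 for sensors (8.04) and 830.1 for effectors (721). Posterior mean TPM gave 57.8 for transcription factors and 9.14 for sensors. Effectors without Ifitm2 and Ifitm3 summed to 142.9 TPM. The ISRE core was in 5 members within 100 bases, and 3 held 3 repeats (10 in the full window). The cause of these shifts was not tested. Depth limits the members under 50 counts, whose ratios have intervals wider than 1 on the log2 scale. Above that count, Ifit1 (0.22 to 1.24) and Dhx58 (-0.38 to 0.74) also had intervals wider than 1.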
